A study of Homo sapiens with 3 samples.

Results

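Stable structured noncoding RNAs of the kind made by RNA polymerase III were followed in 293T cells, a line derived from human embryonic kidney. The genes were chosen by name and were RMRP, RPPH1, RN7SK, RN7SL1, TERC, VTRNA1-1 and VTRNA1-2. Of these 7 genes, 5 were found among the 23284 genes of the expression values. RN7SK and RN7SL1 do not occur under these names in the values used here. The cells had been made to express dCas9-VP64, which is a cleavage-dead Cas9 fused to a transcriptional activation domain, and 1 of 3 guides, the mock sgRNA, sgL1ASP #1 or sgL1ASP #3. Both sgRNAs are directed to different sites of the antisense promoter (ASP) of the retrotransposon L1, and the mock sgRNA came from the parental cloning vector without an L1 target. The study asked which transcripts change when this promoter is activated. There was 1 library per condition, so all comparisons below are between single libraries and no test was possible.

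RNA polymerase III transcribes short genes and stops at a run of T, and its products carry no poly(A) tail. RMRP and RPPH1 are the RNA subunits of the RNases MRP and P, which process ribosomal RNA precursors and transfer RNA precursors. RN7SK holds the transcription elongation factor P-TEFb inactive, RN7SL1 is the scaffold of the signal recognition particle, TERC is the template RNA of telomerase, and the vault RNAs VTRNA1-1 and VTRNA1-2 belong to the vault particle. TERC is transcribed in human cells by RNA polymerase II and therefore shares with the others its structure and its lack of a long poly(A) tail rather than its polymerase. The libraries were prepared with an mRNA kit, which selects RNA by its poly(A) tail, so that the level of an RNA without such a tail in these values need not be its level in the cell.

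The RNA of RMRP is shown because RMRP was the gene of this group with the highest level, and the capitals mark its longest runs of A. GENCODE 44 places it as a ribozyme gene of 264 bases at chr9:35657751-35658014, minus strand, in GRCh37 (also called hg19).

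RMRP: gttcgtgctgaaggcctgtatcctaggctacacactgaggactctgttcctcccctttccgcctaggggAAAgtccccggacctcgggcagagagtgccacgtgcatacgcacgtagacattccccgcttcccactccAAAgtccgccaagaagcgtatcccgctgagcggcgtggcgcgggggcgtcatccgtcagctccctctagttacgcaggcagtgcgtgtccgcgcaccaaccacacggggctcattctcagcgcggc

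The longest runs of A in RMRP are 3 bases long and occur 2 times. The longest run is 6 bases in TERC, 3 in VTRNA1-1 and 2 in VTRNA1-2. None of these RNAs therefore carries a long internal run of A. The GC content is 63.3% in RMRP, 66.7% in TERC, 52.5% in VTRNA1-1 and 55.1% in VTRNA1-2.

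The vault RNAs are shown as the members listed at 0 in all libraries. The capitals mark GTTCGA, the core of the B box, an internal promoter element of RNA polymerase III. VTRNA1-1 lies at chr5:140090860-140090958 and VTRNA1-2 at chr5:140098510-140098598, both on the plus strand of GRCh37.

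VTRNA1-1: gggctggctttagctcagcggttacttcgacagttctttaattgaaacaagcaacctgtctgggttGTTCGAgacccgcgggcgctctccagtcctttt

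VTRNA1-2: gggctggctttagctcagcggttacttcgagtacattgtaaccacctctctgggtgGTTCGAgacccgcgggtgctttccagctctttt

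Their first 30 bases are identical, and the letters GTTCGA occur 1 time in each. The RNAs are 99 and 89 bases long, not much longer than a read of 75 bases.

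The 3′ ends differ between the genes. In the sequences that follow, 10 bases before and 20 bases after the annotated 3′ end are shown on the strand of the gene, with runs of at least 4 T in capitals. They lie at chr9:35657731-35657760 (minus) for RMRP, chr6:52860737-52860766 (plus) for RN7SK, chr3:169482288-169482317 (minus) for TERC, chr5:140090949-140090978 (plus) for VTRNA1-1 and chr5:140098589-140098618 (plus) for VTRNA1-2.

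RMRP 3′ end: tcagcgcggctgTTTTTTgttcccgagacc

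RN7SK 3′ end: ctgcctttcTTTTgacccattacccatcta

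TERC 3′ end: ccaaacctgactgactgggccagtgtgctg

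VTRNA1-1 3′ end: cagtccTTTTacctctctgggcggttcgag

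VTRNA1-2 3′ end: cagctcTTTTactgctgaagttcagctcct

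A run of T is found at RMRP, where it is 6 bases long, and at RN7SK and both vault RNAs, where it is 4 bases long. The window of TERC holds none. Of the 215926 annotated transcript ends of GENCODE 44, 21.1% have TTTT in the same window. RPPH1 and RN7SL1 were not matched by name in this annotation, and no sequence of theirs is shown.

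The deposited unit is FPKM, which sets mapped fragments against exon length and library size. How the libraries were scaled to each other is not given in the sources used here. FPKM was above 0 for 16640 genes (71.5%) in mock, 16693 (71.7%) with sgL1ASP #1 and 16440 (70.6%) with sgL1ASP #3. A depth was estimated from genes with 1 annotated transcript longer than 1000 bases, less a fragment of 200 bases. It was the depth at which the largest number of them would hold 1 read. This peak held 38 of 955 genes in mock, 57 of 1001 with sgL1ASP #1 and 45 of 954 with sgL1ASP #3. The estimated depth was 10400000 reads for mock, 10300000 with sgL1ASP #1 and 8740000 with sgL1ASP #3. If the libraries were scaled to each other before deposit, these are scaled library sizes and not numbers of reads. The markers of the cell line were at similar levels in the 3 libraries. VIM had FPKM 807 in mock, 904 with sgL1ASP #1 and 862 with sgL1ASP #3, and KRT8 had 68.1, 66.9 and 73.2. The neurofilament gene NEFL had 9.17, 9.61 and 9.08. KRT18 and NEFM were above 0 in all libraries as well, and PAX2 had the lowest level of these markers with 0.522, 0.654 and 0.658. PTPRC, CD3E, COL1A2 and HBB, markers of other cell types, were listed at 0 in all libraries, and the liver marker ALB had 0.467, 0.284 and 0.337.

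Of the 5 noncoding RNA genes, 2 were above 0 in mock, 3 with sgL1ASP #1 and 2 with sgL1ASP #3. RMRP was above 0 in every library, RPPH1 in both sgRNA libraries, and TERC in mock and with sgL1ASP #1. Both vault RNA genes were listed at 0 in every library. An FPKM of 0 in this unit can also be an estimate that failed, and the vault RNAs are therefore given as listed at 0 and not as absent.

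RMRP had FPKM 2.77 in mock, 15.4 with sgL1ASP #1 and 11.7 with sgL1ASP #3. The mock library was the low one, and both sgRNA libraries lay above it. The ratio to mock was 5.57-fold with sgL1ASP #1 (log2 ratio 2.48) and 4.21-fold with sgL1ASP #3 (log2 ratio 2.07). Between the sgRNAs it was 1.32-fold (log2 ratio 0.40), higher with sgL1ASP #1. Among the genes above 0 in each library, 34.2% were lower than RMRP in mock, 66.9% with sgL1ASP #1 and 59.9% with sgL1ASP #3. RMRP therefore stood in the lower part of the expressed genes in mock and above their middle in both sgRNA libraries.

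RPPH1, the RNA of the RNase P sister enzyme, was listed at 0 in mock and had FPKM 4.32 with sgL1ASP #1 and 2.56 with sgL1ASP #3. In the values as listed, mock was the lowest and sgL1ASP #1 the highest library, as for RMRP. Whether the libraries differed in RPPH1 cannot be said from the read numbers given below. No fold was taken against the value of 0. The ratio between the sgRNAs was 1.68-fold (log2 ratio 0.75). Among the genes above 0, 41.0% were lower than RPPH1 with sgL1ASP #1 and 32.5% with sgL1ASP #3.

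TERC had FPKM 0.392 in mock and 0.397 with sgL1ASP #1 and was listed at 0 with sgL1ASP #3. The ratio of sgL1ASP #1 to mock was 1.01-fold (log2 ratio 0.02). TERC stood low in the libraries in which it was above 0, where 15.6% of the expressed genes in mock and 16.1% with sgL1ASP #1 were lower. On the scale of FPKM, a level per length, the order was RMRP, RPPH1, TERC with sgL1ASP #1, RMRP, TERC in mock and RMRP, RPPH1 with sgL1ASP #3.

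**Figure D1:**
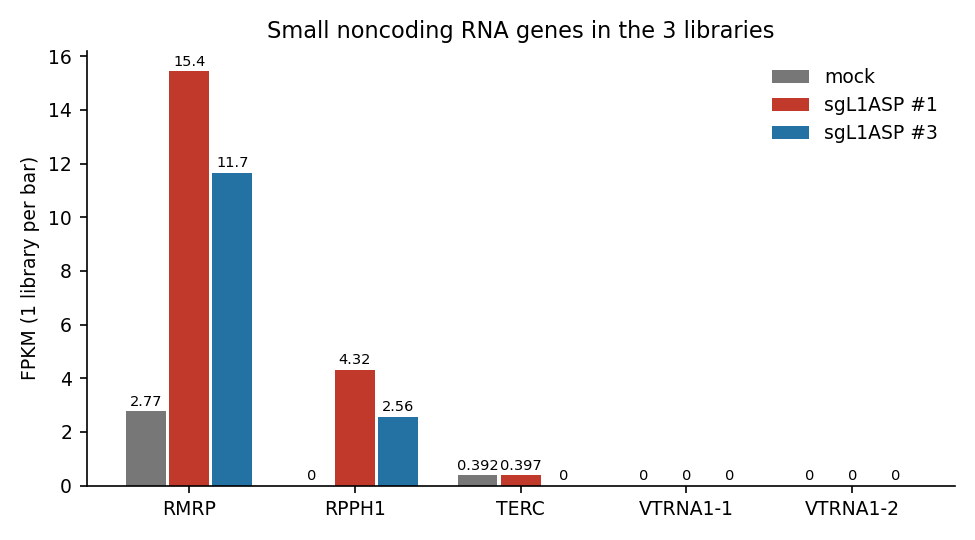
FPKM (vertical axis, linear from 0) of the 5 small noncoding RNA genes in the mock, sgL1ASP #1 and sgL1ASP #3 libraries, with 1 library per bar and no error bars because there are no replicates. RMRP stands at 2.77 in mock and at 15.4 and 11.7 with the sgRNAs, RPPH1 is listed at 0 in mock, and both vault RNA genes have no bar in any library.

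These values were set beside all genes with a limit of 1.5-fold, the fold used by the study, without a pseudocount and over genes above 0 in both libraries. The study's own rule was a rise above 1.5-fold from mock to sgL1ASP #3 and again from sgL1ASP #3 to sgL1ASP #1. Here each pair of libraries was compared on its own. RMRP, at 1.32-fold between the sgRNAs, did not meet the rule of the study. Of the 2 noncoding RNA genes that could be compared between sgL1ASP #1 and mock, 1 was past the limit, RMRP, while 5.88% of all 15982 compared genes were higher by this limit. With sgL1ASP #3 the only gene compared was RMRP, which was past the limit, against 5.73% of 15868 genes. Between sgL1ASP #1 and sgL1ASP #3, 1 of 2 was past the limit, RPPH1, against 5.93% of 15872 genes. With 1 or 2 genes compared, these counts cannot be read against the background.

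The ratios of RMRP to mock also stood high among genes with a mean FPKM of at least 1. This filter is low for RMRP, since the read numbers given below put 1 read in mock at FPKM 1.38. Only genes above 0 in both libraries of a ratio were counted, so genes listed at 0 in mock, such as RPPH1, were left out. Of 12727 such genes with a mean FPKM of at least 1, 6 had a higher ratio of sgL1ASP #1 to mock than RMRP (0.0471%). Of 12718 such genes, 12 had a higher ratio of sgL1ASP #3 to mock (0.0944%). The ratio between the sgRNAs was not among the extreme ones, since 460 genes (3.62%) had a higher one.

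**Figure D2:**
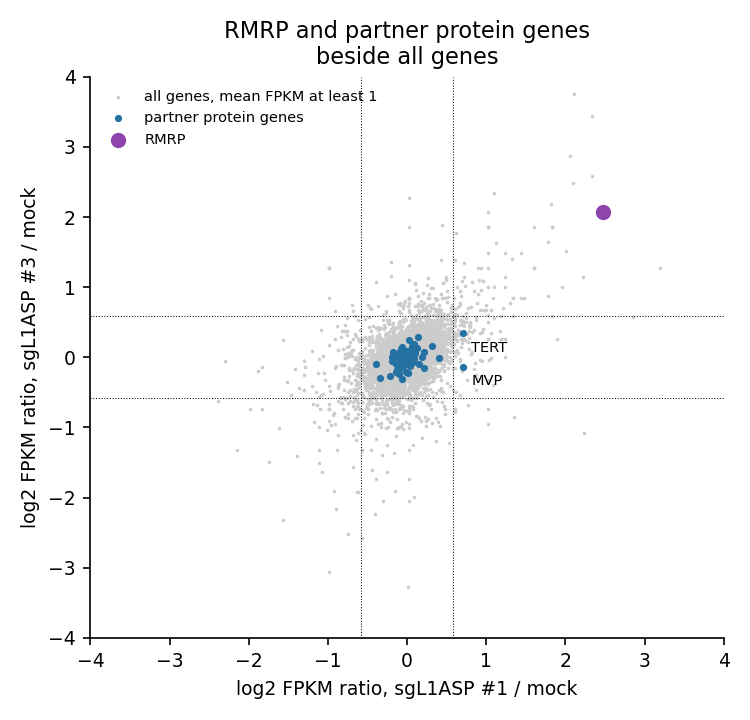
Log2 FPKM ratio of sgL1ASP #1 to mock (horizontal axis) and of sgL1ASP #3 to mock (vertical axis), 1 point per gene. Shown are genes above 0 in every library with mean FPKM at least 1, with 12694 genes within the axes and 7 outside. The dotted lines mark 1.5-fold, RMRP lies at 2.48 and 2.07, and the partner protein genes lie near 0 except TERT and MVP on the horizontal axis. Both axes share the mock library.

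The number of reads behind these levels is small, and it can be read from the values. Genes at low FPKM differ between libraries in steps of whole reads. For sgL1ASP #1 to mock, 1476 genes were above 0 and under FPKM 0.3 in each of these libraries. Of them, 347 shared the ratio 1.01305, that of equal read numbers, and 119 had a ratio of 2 reads to 1. The ratio of equal reads was 1.20334 between sgL1ASP #3 and mock (326 of 1404 genes) and 0.841867 between sgL1ASP #1 and sgL1ASP #3 (353 of 1409 genes). The ratios of the noncoding RNA genes fall on the same steps. The smallest whole numbers that give the ratios of RMRP are 2 reads in mock, 11 with sgL1ASP #1 and 7 with sgL1ASP #3, with a deviation of at most 0.000332%. For RPPH1 they are 2 reads with sgL1ASP #1 and 1 with sgL1ASP #3, and for TERC 1 read in mock and 1 with sgL1ASP #1.

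Multiples of these numbers would give the same ratios. For RMRP the estimated depth and the annotated length, less a fragment of 200 bases taken here, give 1.83 reads in mock, 10.2 with sgL1ASP #1 and 6.52 with sgL1ASP #3. For TERC they give 1.38 reads in mock and 1.39 with sgL1ASP #1. Both estimates are closer to the smallest numbers than to their doubles, though for TERC the margin is small. They rest on the fragment taken and on GENCODE lengths, while the annotation behind the FPKM is not given in the sources used here. No length was at hand for RPPH1, so that its 2 and 1 reads are minimum numbers.

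**Figure D3:**
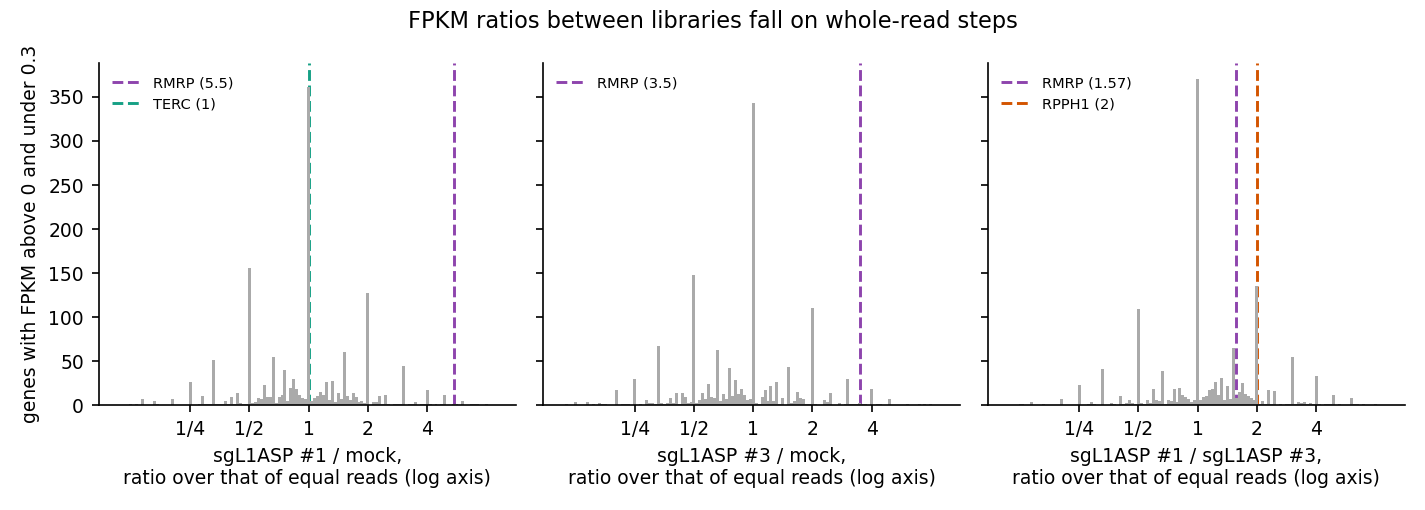
Histograms of FPKM ratios between pairs of libraries for genes above 0 and under 0.3 FPKM in both, divided by the ratio of equal read numbers (horizontal axis, logarithmic) with the number of genes on the vertical axis. Peaks stand at 1, 2 and other ratios of small whole numbers, and the dashed lines mark RMRP at 5.50 and 3.50 over mock, TERC at 1 and RPPH1 at 2 between the sgRNAs.

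With the smallest numbers, counting error alone gave wide limits. The exact 95% interval of the RMRP ratio was 1.22 to 51.7 for sgL1ASP #1 to mock and 0.802 to 41.6 for sgL1ASP #3 to mock, so that the second includes a ratio of 1. Between the sgRNAs it was 0.468 to 4.02 for RMRP and 0.0877 to 99.3 for RPPH1, and for TERC between sgL1ASP #1 and mock it was 0.0129 to 79.5. Only the interval of RMRP for sgL1ASP #1 to mock lay above 1. Multiples of these numbers would give narrower intervals, which matters most for RPPH1, whose length was not at hand. These intervals cover the counting of reads only, not the spread between cultures or preparations.

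The zeros are limited by the same numbers. A count of 0 allows up to 3 reads. For TERC with sgL1ASP #3, 3 reads at the smallest numbers would be FPKM 1.41, above its values of 0.392 and 0.397 in the other libraries, so that a difference was not detectable at this depth. For RPPH1 in mock, 3 reads would be at most FPKM 6.39. This bound holds for the minimum of 2 and 1 reads and would be lower for multiples of them, so that it cannot be said from these values whether the 4.32 and 2.56 of the sgRNA libraries lay above it.

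Short genes as a class had few and variable values. Of 1387 genes whose longest annotated transcript is under 150 bases, the class of the vault RNAs, 89.4% were listed at 0 in all libraries. In the class of RMRP, 150 to under 300 bases, this was 57.1% of 63 genes, and in that of TERC, 300 to under 600 bases, 63.6% of 275 genes, compared with 17.2% of 17775 genes of 600 bases or more. The vault RNAs thus shared their zeros with most genes of their length. Among genes above 0 in both libraries, the share past 1.5-fold between sgL1ASP #1 and mock was 49.2% of 65 genes under 150 bases, 47.1% of 17 in the class of RMRP and 10.6% of 13540 genes of 600 bases or more. In the class of RMRP, 4 genes were higher and 4 lower with sgL1ASP #1, and with sgL1ASP #3 these numbers were also 4 and 4, of 18 compared. RMRP itself is counted in its class, among the 4 higher genes with each sgRNA. How far length and read number account for the values of RMRP was not tested.

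**Figure D4:**
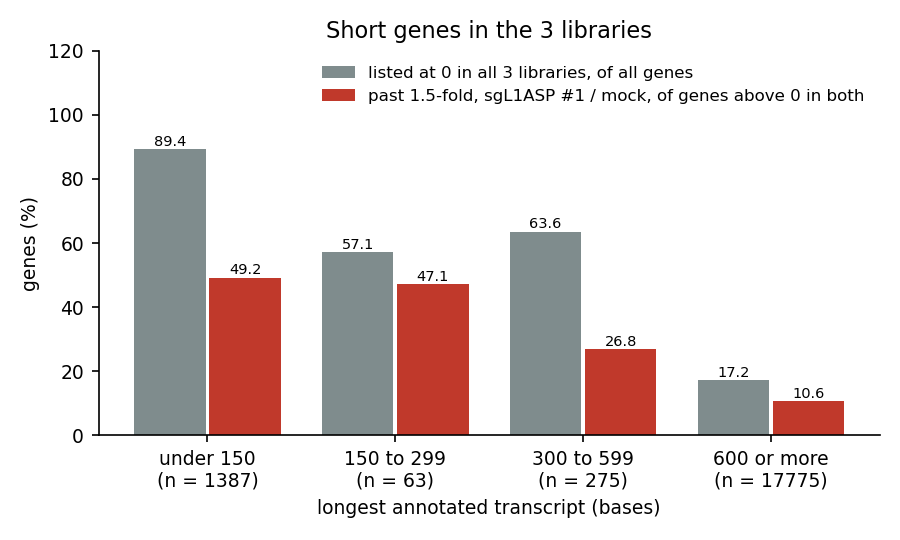
Percent of genes (vertical axis, from 0) by the length of the longest annotated transcript (horizontal axis). Grey bars give genes listed at 0 in all 3 libraries and red bars genes past 1.5-fold in either direction between sgL1ASP #1 and mock, of those above 0 in both. Both shares are lowest in genes of 600 bases or more, at 17.2% and 10.6%.

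Genes with the pattern most like that of RMRP were sought by the distance of the pair of log2 ratios to mock. The search covered 12701 genes that were above 0 in every library and had a mean FPKM of at least 1 over the 3 libraries. The nearest was LOC100288432, at a distance of 0.533, with FPKM 0.365 in mock, 1.85 with sgL1ASP #1 and 2.19 with sgL1ASP #3. LOC100288432 passed this filter only through the sgRNA libraries, where it was high, so nothing is read from its place. It was followed by MIR600 at 0.564 (122.8, 524.5 and 688.8) and by MIR1248 at 0.674 (86.1, 303 and 394). The pattern of these genes differed from that of RMRP in that sgL1ASP #3 was the highest library. The smallest whole read numbers of LOC100288432 are 1, 5 and 5, whereas no small whole numbers gave the ratios of MIR600 and MIR1248.

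Of 12347 genes that reached FPKM 1 in each of the libraries, 6 were more than 3-fold higher than mock with both sgRNAs and 0 were more than 3-fold lower. The 3-fold limit and the names that follow were chosen after the values were seen. Besides RMRP, MIR600 and MIR1248, these were MUTED and the small nucleolar RNA genes SNORD76 and SNORD97. SNORD76 had FPKM 2675 in mock, 9483 with sgL1ASP #1 and 9655 with sgL1ASP #3, and its smallest whole read numbers are 2, 7 and 6. SNORD97 had 16.6, 50.6 and 60.1, with smallest read numbers of 1, 3 and 3. For MIR600, MIR1248 and MUTED no small whole numbers were found, and with a limit chosen on these values nothing is read from the kinds of genes past it.

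Other small RNA genes were followed from lists. Of 21 further small RNA genes of RNA polymerase III, 6 were found in the values, namely VTRNA1-3, VTRNA2-1, RNY4, RNY5, BCYRN1 and RNU6ATAC. All 6 were listed at 0 in every library. RMRP and RPPH1 were therefore the only genes above 0 among the 10 RNA polymerase III genes with values. These 10 are the 6 just named, RMRP, RPPH1, VTRNA1-1 and VTRNA1-2. Zeros in all libraries were common among short genes, at 89.4% under 150 bases and 57.1% from 150 to under 300 bases. Nothing is therefore read from the count of zeros. Of 18 spliceosomal snRNA genes, which RNA polymerase II transcribes, 6 were found, and RNU5D-1, RNU5E-1 and RNU5F-1 were listed at 0 in every library. RNU11, an RNA of the minor spliceosome, had FPKM 42.7 in mock, 64.9 with sgL1ASP #1 and 51.4 with sgL1ASP #3. Its ratio to mock was 1.52-fold with sgL1ASP #1 and 1.20-fold with sgL1ASP #3, and its smallest whole read numbers are 2, 3 and 2. RNU12 was above 0 with sgL1ASP #1 alone (13.4), and RNU4ATAC with sgL1ASP #3 alone (31.2), 2 genes named after their values were seen.

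The genes of proteins that assemble with these RNAs, and of those that transcribe them, were followed from lists. Of 71 such partner genes, 69 were found in the values, and all 69 were above 0 in every library. With sgL1ASP #1, 2 were more than 1.5-fold higher than mock and 0 lower, which is 2.90%, while 3.23% of the genes with mean FPKM at least 1 were past the limit in either direction. With sgL1ASP #3, 0 were past the limit, against 3.48%. For the partner genes, the median log2 ratio was -0.01 (sgL1ASP #1) and 0.00 (sgL1ASP #3), and over all genes of mean FPKM 1 or more it was 0.00 with both.

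Most protein subunits of RNases P and MRP are common to the particles of RPPH1 and RMRP, although some, such as RPP21, are known from RNase P alone. Of 11 listed, 10 had values, and 0 were past the limit with either sgRNA. Their median log2 ratio to mock was -0.07 with sgL1ASP #1 and -0.13 with sgL1ASP #3. RPP21, the most abundant of them, had FPKM 128.8 in mock, 128.6 with sgL1ASP #1 and 137.2 with sgL1ASP #3. POP1, the large subunit common to both enzymes and named here outside the rule, had 2.69, 3.10 and 2.41.

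For RN7SK, its 7 protein partners had median log2 ratios of -0.04 with sgL1ASP #1 and 0.01 with sgL1ASP #3, and 0 were past the limit. MEPCE, the capping enzyme of 7SK RNA, had FPKM 52.6, 51.1 and 55.8 in mock, sgL1ASP #1 and sgL1ASP #3. For RN7SL1, 8 of 9 genes of the signal recognition particle and its receptor had values, with medians of 0.02 and 0.03 and 0 past the limit. SRP14, a subunit bound to the Alu domain of 7SL RNA, had FPKM 125.7, 129.6 and 135.6.

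Of the telomerase protein genes, 1 was past the limit, with sgL1ASP #1. TERT, the reverse transcriptase that copies the TERC template, had FPKM 2.33 in mock, 3.79 with sgL1ASP #1 and 2.95 with sgL1ASP #3. Its log2 ratio to mock was 0.70 with sgL1ASP #1, past the limit, and 0.34 with sgL1ASP #3. For the 8 telomerase genes, the medians were 0.02 and 0.01. NHP2, the most abundant of them and a protein bound to TERC, had FPKM 207, 217 and 218.

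The vault particle had 3 protein genes, all with values although VTRNA1-1 and VTRNA1-2 were listed at 0. MVP, the major vault protein that forms the shell, had FPKM 1.39 in mock, 2.28 with sgL1ASP #1 and 1.27 with sgL1ASP #3, and its log2 ratio to mock was 0.71 with sgL1ASP #1 and -0.13 with sgL1ASP #3. PARP4, the vault poly(ADP-ribose) polymerase, had 7.99, 7.62 and 6.44. The level of MVP was thus highest in the sgL1ASP #1 library. Between the sgRNAs it was 1.79-fold higher with sgL1ASP #1, the only partner gene past the limit there. Against mock, neither TERT nor MVP was past the limit with a pseudocount of 1 or a 2-fold limit.

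The transcription machinery lay close to mock. The 13 subunits of RNA polymerase III had median log2 ratios of -0.04 with sgL1ASP #1 and -0.03 with sgL1ASP #3, and POLR1D, a subunit shared with RNA polymerase I, had FPKM 295, 297 and 284. The 20 initiation factors and regulators had medians of 0.00 and 0.03. SSB, the La protein that binds the 3′ end of new RNA polymerase III transcripts, had FPKM 145.2, 153.5 and 139.3. Of these 33 genes, 0 were past the limit with either sgRNA.

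**Figure D5:**
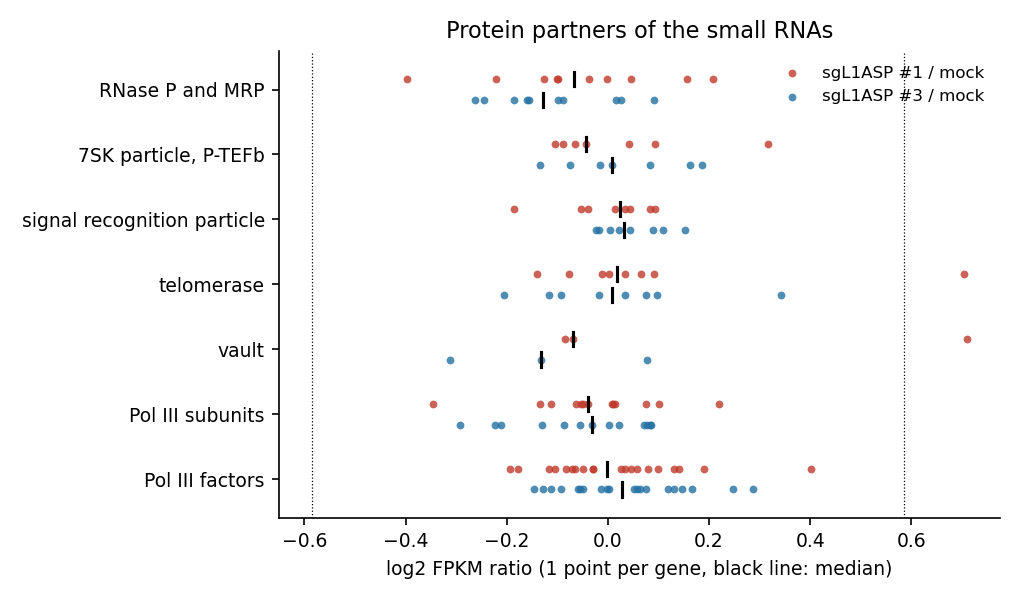
Log2 FPKM ratio to mock (horizontal axis) of the 69 partner protein genes in 7 groups, 1 point per gene, red for sgL1ASP #1 and blue for sgL1ASP #3, with black lines at the group medians and dotted lines at 1.5-fold. All points lie within the limits except TERT at 0.70 and MVP at 0.71 with sgL1ASP #1.

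The genes next to the noncoding RNA genes were compared as well. CCDC107 lies 273 bases from RMRP on the opposite strand, and its FPKM was 11.0 in mock, 9.58 with sgL1ASP #1 and 11.8 with sgL1ASP #3. SIT1, on the other side at 6823 bases and on the strand of RMRP, had FPKM 0.0926, 0.0938 and 0. Neither neighbour of RMRP had the order of libraries seen in RMRP, and the FPKM of SIT1 in mock and with sgL1ASP #1 differed by the ratio of equal reads.

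Next to TERC, ACTRT3 at 1861 bases, listed under its older name ARPM1, had FPKM 1.54, 1.02 and 1.28, and MECOM at 100745 bases had 1.78, 1.45 and 2.45. ACTRT3 was 1.51-fold higher in mock than with sgL1ASP #1, just past the limit, and MECOM was within the limit against mock with both sgRNAs. ZMAT2, the protein-coding gene before the vault RNA genes, lies 4589 bases from VTRNA1-1 and had FPKM 66.0, 67.1 and 61.2, while PCDHA1 after them was listed at 0 in every library. Both vault RNA genes lie within a longer lncRNA gene on the same strand, and reads of the 2 could not be told apart there by strand. RPPH1 lies between CCNB1IP1 and PARP2 in the gene order of RefSeq for GRCh38.p14. CCNB1IP1 had FPKM 163.5, 178.0 and 173.4, and PARP2 had 83.4, 81.6 and 79.9, so that neither was past the limit. The order of libraries in CCNB1IP1 was that listed for RPPH1, whereas PARP2 was highest in mock.

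Close copies elsewhere in GRCh37 could share reads with these genes. RMRP and TERC had 0 other places with an aligned stretch of at least 75 bases. VTRNA1-1 and VTRNA1-2 each had 3, with identities of at most 84.3% and 86.5%, and RN7SK had 205, of which 8 were at least 95% identical. The levels of RMRP and TERC are therefore not shared with a copy of this length in the reference.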

How the data were processed

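The authors extracted total RNA, prepared stranded mRNA libraries, sequenced them as 75-base single reads, mapped them to hg19 with TopHat2 2.0.13, Bowtie2 2.2.3 and SAMtools 0.1.19, and deposited 1 FPKM per gene and library, calculated with the Cuffdiff program of Cufflinks 2.2.1. The gene annotation and the scaling between libraries are not given in the sources used here. The 3 samples were grouped by their labels, and 0 value columns belonged to no sample.

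FPKM were used as deposited, with a 1.5-fold limit and no pseudocount. The FPKM ratio of equal read numbers between 2 libraries was taken as the most frequent ratio among genes under FPKM 0.3, a step tested on simulated data, and ratios were called whole within 0.1%. The FPKM of 1 read of a gene was its FPKM divided by its smallest whole read number. The depth estimate and the copies in the genome were added after the values were seen. The members and lists were chosen with earlier results of these data known. Named genes are all members, their neighbours, the most abundant gene of each list, up to 3 genes of each list past the limit with mean FPKM at least 1, and the 3 nearest patterns to RMRP. Other names were chosen after the values were seen. Coordinates and sequences are from GRCh37 with GENCODE 44, in which 19500 gene names were placed and 5 of the 7 members. Upstream promoter sequences were not analysed here, as 0 members matched the promoter table used, and GTTCGA was counted only within the vault RNAs. Python 3.11.15, NumPy 2.4.6, pandas 2.3.3, SciPy 1.17.1, matplotlib 3.10.9, samtools 1.23.1 and BLAST+ 2.17.0 were used.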

Additional observations from a re-analysis of the deposited data

How the results depend on the processing

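With 1 library per condition no replicate could be left out. No paired analysis was possible because the conditions were sequenced as 1 library each. Of 83 values recomputed under alternatives, 63 stayed within 1.5-fold of the reported value and 20 moved further. No log2 ratio past the limit changed sign, but 3 values near 0 did. Rescaled to an equal sum, the log2 ratio of TERC between sgL1ASP #1 and mock went from 0.02 to -0.075, and the median of the partner genes with sgL1ASP #3 from 0.0020 to -0.12, the latter also to -0.0012 with the median ratio. The partner median with sgL1ASP #1 went from -0.012 to -0.11 at an equal sum. Under pseudocounts of 0.1 and 1 and both rescalings, none of which could turn a ratio of its size, the log2 ratio of RMRP to mock was 2.12 to 2.48 with sgL1ASP #1 and 1.75 to 2.07 with sgL1ASP #3. Rescaling each library to a sum of 1000000 shifted the median log2 ratio of all genes of mean FPKM 1 or more to -0.093 with sgL1ASP #1 and -0.12 with sgL1ASP #3.

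Between sgL1ASP #1 and mock, 1 noncoding RNA gene was past the limit, and 2 after adding 0.1 or 1 to each FPKM or counting genes at 0, when RPPH1 was added. With sgL1ASP #3 the 1 became 3, 2 and 3 in the same settings, where RPPH1 was higher and, in the settings with 3, TERC lower. Between the sgRNAs the 1 became 2 with a pseudocount of 0.1 or with zeros counted, and 0 with a pseudocount of 1 or a 2-fold limit. The 2 partner genes past the limit with sgL1ASP #1, TERT and MVP, became 0 with a pseudocount of 1 or a 2-fold limit. Over all genes, 1896 with sgL1ASP #1 became 338 with a pseudocount of 1, 3265 with zeros counted, 411 at mean FPKM at least 1 and 916 at 2-fold, and 1900 with sgL1ASP #3 became 357, 3244, 442 and 913. The depth, of 1 to 11 reads at the smallest numbers, limits every level of the noncoding RNA genes.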
